A study of Mus musculus with 2 samples.

Results

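S100a8, S100a9, S100a4, S100a6, S100a10 and S100a11 of the S100 family and the LIM-domain gene Crip1 were followed through the myeloid cells of mouse alveolar bone, the bone that holds the teeth. The 7 genes were taken by symbol from a table of 27998 genes, and each had 1 row in both libraries. S100a8 and S100a9 were set as the neutrophil pair against the other 5 genes as a monocyte set. The series holds 2 single-cell libraries of cells sorted as F4/80+CD11b+ from 8-week-old male C57/B6 J mice. The control library came from mice without force, and the library labelled Case came from mice in which a coil spring had pulled the left first molar for a week (orthodontic tooth movement, OTM). Each library pooled a group of mice and no label ties a cell to an animal, so there was 1 sample per condition and no test of OTM against control was possible. Intervals below are exact 95% intervals and cover counting error only.

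The study's methods word the filter on cells as a minimum of 200 genes for every 1000 unique molecular identifiers (UMIs, 1 per captured transcript), and here it was applied as 200 genes per cell, a choice that turns some results below. The reason was that the minimum per 1000 UMIs drops cells in which S100a8 and S100a9 take many UMIs. The choice thus drew on levels of the members themselves. With at least 200 genes per cell and at most 5% mitochondrial transcripts, 2835 of 2863 control barcodes and 2052 of 2058 OTM barcodes were kept. They held 14493851 and 16472699 UMIs, with medians of 3998 and 6861.5 UMIs per cell, and 6 barcodes occurred in both libraries. Clustering without any S100 or Crip gene gave 11 control groups and 7 OTM groups. Although the label calls the cells alveolar macrophages, 1273 control cells (44.9%) and 1055 OTM cells (51.4%) fell into groups that carried granulocyte markers such as Camp, Ngp and Retnlg. These are called neutrophil-like, granulocyte progenitor-like cells included. Another 1506 control cells (53.1%) and 997 OTM cells (48.6%) were monocyte/macrophage-like, and 1 control group of 56 cells led by hemoglobin and B cell genes was left unnamed. Adgre1, which encodes F4/80, was at 8.71 and 8.53 UMIs per 1000000 UMIs (CPM, the share of a cell group's UMIs that a gene takes) in neutrophil-like cells and at 87.4 and 94.4 CPM in monocyte/macrophage-like cells of the control and OTM libraries. In either class and library, the 6 B cell markers summed to at most 10.5 CPM, 5 T or NK cell markers to 6.96 CPM, 5 stromal or endothelial markers to 20.03 CPM and 5 osteoclast markers, of which Calcr was at 0, to 121 CPM. Red cell markers reached 6733 CPM in OTM monocyte/macrophage-like cells and mast cell or basophil markers 122 CPM in control neutrophil-like cells, and both are given beside the results they moved with.

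S100 proteins are small calcium-binding proteins of the EF-hand type that mostly work as pairs. S100a8 and S100a9 form calprotectin, which fills the cytosol of neutrophils, binds zinc and manganese, and after release acts as an alarm signal through Tlr4 and the receptor Ager. S100a4 binds the myosin heavy chain Myh9 and is linked to cell motility, S100a6 binds Cacybp, S100a10 forms a membrane-linked complex with Anxa2, and S100a11 binds Anxa1. Crip1 is a small cysteine-rich protein with a single LIM domain. It is not related to the S100 family.

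S100a8, S100a9, S100a4 and S100a6 lie close to each other on mouse chromosome 3 (build GRCm38), S100a8 at chr3:90668978-90670035 on the forward strand and S100a9 at chr3:90692632-90695721 on the reverse strand. S100a4 lies at chr3:90603771-90606045 and overlaps the gene model Gm42674 on the same strand, so reads of these 2 models may not be told apart. S100a6 lies at chr3:90612882-90624181, S100a11 at chr3:93520488-93526287 and S100a10 at chr3:93555080-93564643, all on the forward strand. Crip1 lies on chromosome 12 (chr12:113146316-113153879). Promoter sequences from RefSeq (GRCm38.p6, from 250 bases before to 50 bases after the annotated start) matched 6 of the 7 genes. The gene positions are those of GENCODE, whose start can differ from that of RefSeq: the RefSeq start lies 93 bases downstream for S100a8 and 5696 bases downstream for Crip1. The promoters of the neutrophil pair, which had its highest levels in the neutrophil-like groups of both libraries, and of S100a4, which was low in every neutrophil-like group, are shown because each holds a TATAAA on the coding strand, written in capitals. The S100a8 promoter is chr3:90668821-90669120 on the forward strand, the S100a9 promoter chr3:90695672-90695971 on the reverse strand and the S100a4 promoter chr3:90603520-90603819 on the forward strand.
S100a8: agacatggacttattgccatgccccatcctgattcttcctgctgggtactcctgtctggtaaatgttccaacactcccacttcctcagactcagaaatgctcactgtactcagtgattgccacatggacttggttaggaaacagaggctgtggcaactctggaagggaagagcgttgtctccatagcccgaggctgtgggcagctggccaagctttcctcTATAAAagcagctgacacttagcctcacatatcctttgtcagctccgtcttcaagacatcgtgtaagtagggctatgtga
S100a9: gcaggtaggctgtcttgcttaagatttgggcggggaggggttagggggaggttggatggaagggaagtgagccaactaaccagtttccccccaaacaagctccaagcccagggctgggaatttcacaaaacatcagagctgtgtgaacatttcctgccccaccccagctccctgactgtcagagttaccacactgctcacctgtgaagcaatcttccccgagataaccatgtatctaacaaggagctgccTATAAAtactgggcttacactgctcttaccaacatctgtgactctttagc
S100a4: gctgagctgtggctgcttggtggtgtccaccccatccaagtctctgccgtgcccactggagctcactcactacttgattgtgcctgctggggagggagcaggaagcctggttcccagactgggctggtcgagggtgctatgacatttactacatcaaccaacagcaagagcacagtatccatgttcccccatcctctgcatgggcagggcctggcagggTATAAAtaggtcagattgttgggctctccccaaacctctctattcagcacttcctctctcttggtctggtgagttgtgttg
TATAAA began 30 bases before the RefSeq start of S100a8, 31 bases before that of S100a4 and 0 bases from that of S100a9. Searched on both strands, it was in 13.6% of the 32851 promoters of the table and in none of the promoters of S100a6, S100a11 and Crip1. TTGCNNAA, a pattern bound by factors of the C/EBP type, was in 10.8% of all promoters and occurred 1 time in that of S100a9 and 0 times in the other 5. GAGGAA, a pattern of the Spi1 type, was in 28.3% of all promoters and occurred 2 times in that of S100a8 and 1 time in those of S100a4 and S100a11, and CCAAT was in 37.4% and occurred 1 time in that of S100a6. These matches describe the letters of the windows and nothing more.

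The calprotectin pair took a larger share of the transcripts of neutrophil-like cells than the other members in either library. S100a8 stood at 173867 CPM in control and 168898 CPM in OTM neutrophil-like cells, and S100a9 at 89184 and 86406 CPM. Together they took 26.3% and 25.5% of the UMIs. In the median cell the pair took 32.0% of UMIs in control and 28.3% in OTM. The share differed widely between cells of a class, from 0.455% at the 5th percentile to 41.3% at the 95th in control and from 1.01% to 37.3% in OTM.

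**Figure D1:**
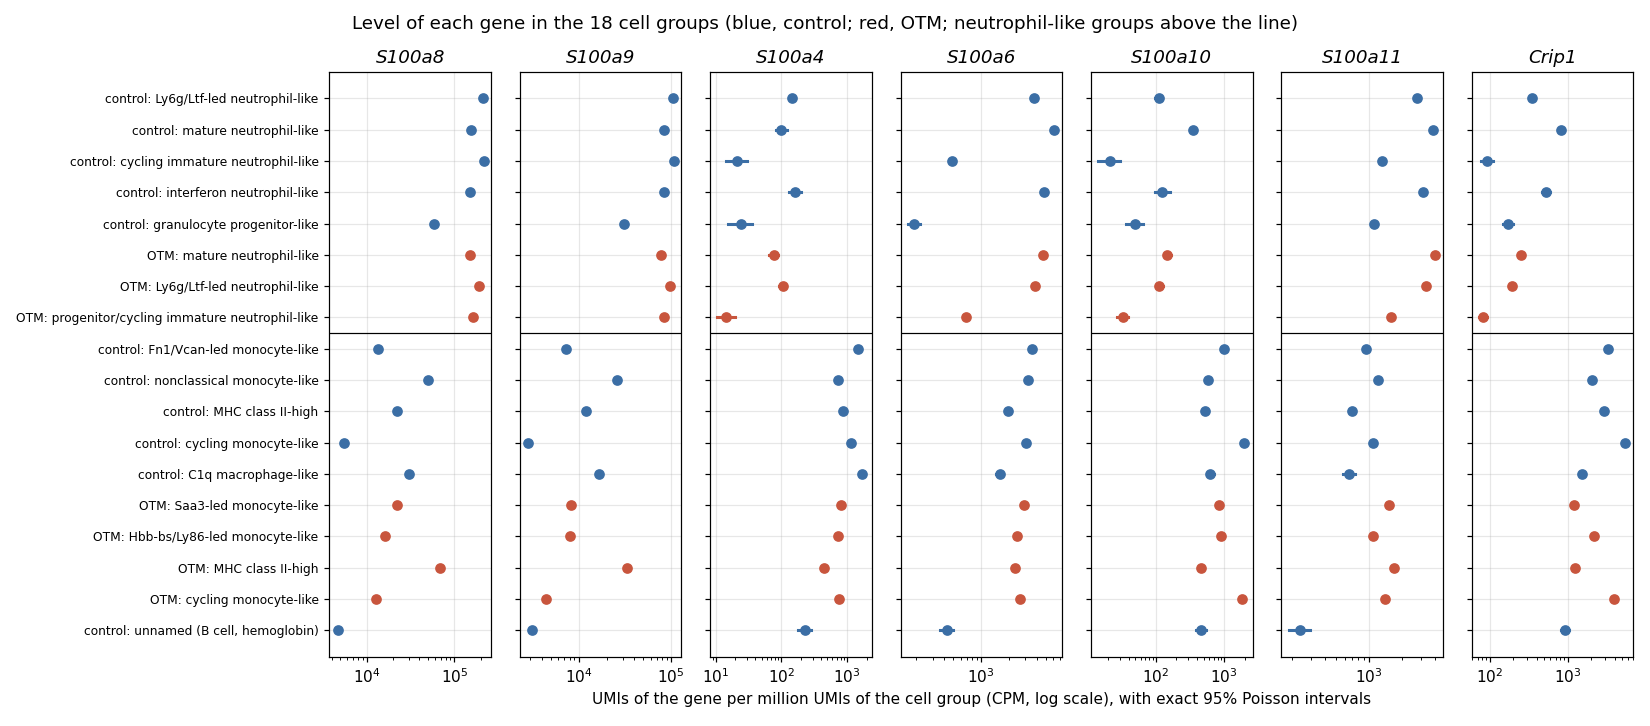
Level of each of the 7 genes in the 11 control (blue) and 7 OTM (red) cell groups, in CPM on a log axis, with exact 95% Poisson intervals as bars, which are hidden by the points where they are narrow. S100a8 and S100a9 are highest in the neutrophil-like groups above the line, S100a4, S100a10 and Crip1 in the groups below it, and S100a6 and S100a11 reach high levels on both sides.

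Within the neutrophil-like groups, S100a8 ran in the control library from 57937 CPM in granulocyte progenitor-like cells, led by Elane and Mpo, to 215185 CPM in cycling immature neutrophil-like cells. It was 212018 CPM in the Ly6g/Ltf-led group, 155616 CPM in mature neutrophil-like cells and 149595 CPM in the interferon-response group. S100a9 took the same course, with 31303, 107263, 106076, 84219.5 and 84415 CPM. The intervals of neighbouring groups did not overlap for S100a8, whereas for S100a9 those of the interferon-response and mature groups did. In the OTM library, in which progenitor-like and cycling immature cells fell into 1 group, S100a8 was at 165002 CPM in that group, 191566 CPM in the Ly6g/Ltf-led group and 149342 CPM in mature neutrophil-like cells. Both libraries thus had the pair lower in mature than in Ly6g/Ltf-led cells. This held in the median cell too, at 30.9% against 34.2% of UMIs in control and 25.0% against 31.6% in OTM. The Ly6g/Ltf-led groups were not of the same stage by their markers, which were nearest to the immature list in control and to the mature list in OTM. At a clustering resolution of 1.0, 109 of the 383 OTM cells of this group fell into an immature and 272 into a mature neutrophil-like group.

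Outside the neutrophil-like class, nearly every droplet held S100a8 transcripts. At least 1 S100a8 UMI was counted in 99.8% of the 1506 control and 99.9% of the 997 OTM monocyte/macrophage-like cells, and in all 56 cells of the unnamed B cell and hemoglobin group, which was led by genes of other cell types (median depths 4363, 7833 and 5733 UMIs). After each cell was thinned to 1500 UMIs, which left out no cell, the shares in monocyte/macrophage-like cells were 96.3% and 98.8%. The share was no lower in the unnamed group, so a share of cells with a UMI is not read here as expression. How much of the S100a8 counted in monocyte/macrophage-like cells was free transcript, which droplets can take up, was not tested. The median cell of the unnamed group had 0.363% of its UMIs from the pair, that of the control monocyte/macrophage-like class 0.424% and that of the OTM class 0.545%. The identity of the unnamed group was not settled and OTM had no such group, so its value serves for comparison within the control library alone.

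Summed monocyte/macrophage-like cells had 3.46% (control) and 4.70% (OTM) of their UMIs from the pair, which is several times the share of the median cell. The difference came from a minority of barcodes with many neutrophil transcripts. In 194 control cells (12.9%) and 203 OTM cells (20.4%) of this class, at least 1% of UMIs came from 7 other neutrophil transcripts (Retnlg, Camp, Ngp, Ltf, Lcn2, Wfdc21 and Mmp8), and these cells had 17.2% and 14.9% of their UMIs from S100a8 and S100a9. The other 1312 control and 794 OTM cells had 0.584% and 0.960%. This split at 1% was chosen after the data had been seen, and 70 control and 213 OTM cells of the class lay between 0.5% and 2%. Cells over 1% were most frequent in the nonclassical monocyte-like group of control, of which 66.1% lay under 1%, and in the MHC class II-high group of OTM, of which 48.4% did. This OTM group was mixed: at a resolution of 1.0, 138 of its 256 cells fell into a group named nonclassical monocyte-like and 115 into an MHC class II-high group. The control group was mixed too. Of its 342 cells, 167 fell into a nonclassical group at that resolution and 167 into another monocyte/macrophage-like group. The median depth of the cells over 1% was 6126 UMIs in control and 10621 UMIs in OTM, against 4230.0 and 7508 UMIs in the cells under 1%. Whether the cells over 1% held more than 1 cell was not tested. A doublet caller marked 0 control and 3 OTM barcodes, too few to be of use.

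**Figure D2:**
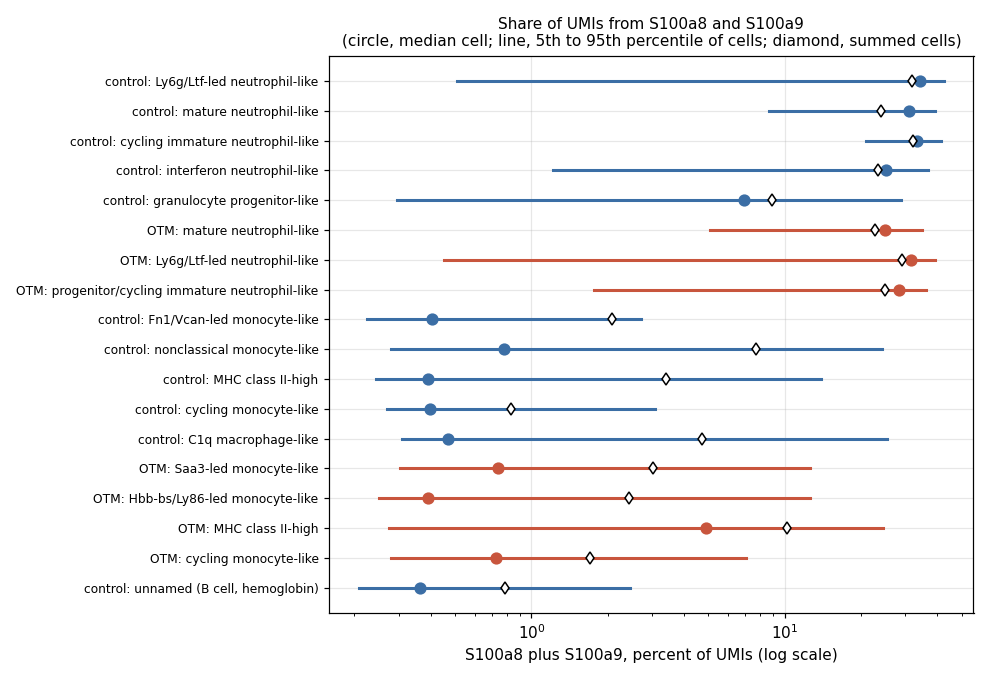
Percent of UMIs from S100a8 plus S100a9 on a log axis in the 18 cell groups (blue, control; red, OTM). Circles are median cells, lines run from the 5th to the 95th percentile of cells, and diamonds are the summed cells. The diamonds of the monocyte/macrophage-like groups lie to the right of the circles, by distances that differ between groups. The circle of the OTM MHC class II-high group sits at 4.91%, against 0.389% in the control group of that name.

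The neutrophil pair was 7.60-fold (7.57 to 7.63) higher in neutrophil-like than in monocyte/macrophage-like cells of the control library and 5.43-fold (5.41 to 5.45) higher in those of the OTM library. Split at 1%, the ratios were 53.3 and 28.6. The split also left out 41 of 78 granulocyte progenitor-like cells of control and 19 of 247 progenitor and cycling immature cells of OTM. Among genes with at least 200 UMIs, 5.28% in control and 6.13% in OTM were over 2-fold higher in neutrophil-like cells, and 27.4% and 28.9% were over 2-fold lower. S100a8 and S100a9 were 2 of 7 members over 2-fold higher in both libraries, and S100a11 had ratios of 2.43 in control and 1.91 in OTM. The OTM ratio of S100a11 passed 2-fold with the split at 1% (2.41, 2.35 to 2.48) and with scaling by the trimmed mean of M values (TMM) in place of totals, at a log2 ratio of 1.44. S100a4, S100a10 and Crip1, 3 of 7, were over 2-fold lower in both.

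S100a4, S100a10 and Crip1 were the members that were high in monocytes and low in neutrophils. S100a4 was at 92.7 CPM in neutrophil-like and 1153 CPM in monocyte/macrophage-like control cells, and at 59.5 and 682 CPM in those of the OTM library. It was therefore 12.4-fold (11.4 to 13.5) and 11.5-fold (10.4 to 12.6) higher in monocyte/macrophage-like cells. S100a10 was at 123.4 and 990.2 CPM in control and 88.9 and 909 CPM in OTM, which is 8.03-fold (7.45 to 8.66) and 10.2-fold (9.45 to 11.1). Crip1 was at 360.5 and 3306 CPM in control and 163 and 1915 CPM in OTM, which is 9.17-fold (8.78 to 9.58) and 11.8-fold (11.1 to 12.5). Neutrophil-like cells with at least 1% neutrophil transcripts had less of them. Crip1 was at 120.4 CPM with a UMI in 24.5% of such control cells and at 75.3 CPM with a UMI in 18.2% of such OTM cells. Of the 575 S100a4 UMIs in control neutrophil-like cells, 402 lay in the 115 cells with under 1% neutrophil transcripts, as did 302 of 453 in the 72 such OTM cells. Split at 1%, S100a4 was at 33.3 and 21.4 CPM in neutrophil-like cells and 39.5-fold and 37.6-fold higher in monocyte/macrophage-like cells, S100a10 was 29.2-fold and 26.3-fold higher, and Crip1 31.3-fold and 30.2-fold.

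S100a6 and S100a11 did not follow the monocyte set to which they had been assigned. S100a6 was at 2940.1 CPM in neutrophil-like and 2976 CPM in monocyte/macrophage-like control cells, a ratio of 0.988 (0.969 to 1.01), and at 2746 and 2570.4 CPM in OTM, a ratio of 1.07 (1.05 to 1.09). This ratio depended on the scaling. The log2 ratio of S100a6 was -0.02 in control and 0.10 in OTM with totals, 0.49 and 0.60 with TMM, 0.60 and 0.63 as a mean over cells, 0.59 and 0.65 with thinned cells, 0.45 and 0.57 with the minimum of genes per 1000 UMIs, and -0.22 and -0.10 with totals that leave out hemoglobin, ribosomal protein and mitochondrial genes. Most of these alternatives thus had more S100a6 in neutrophil-like than in monocyte/macrophage-like cells. S100a11 was higher in neutrophil-like cells, at 2372 against 976 CPM in control and 2754 against 1442 CPM in OTM. The share of cells with an S100a11 UMI at 1500 UMIs was 93.2% in neutrophil-like and 65.5% in monocyte/macrophage-like control cells (99.3% and 88.2% unthinned). In OTM it was 95.2% and 81.4% (99.3% and 97.3% unthinned). In the unnamed group S100a11 was at 234 CPM and S100a6 at 423 CPM, below every monocyte/macrophage-like group.

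Both genes also changed through the neutrophil-like groups, but with their peak in another place than the pair. In control, S100a6 was at 188 CPM in granulocyte progenitor-like cells, 489 CPM in cycling immature, 3702 CPM in Ly6g/Ltf-led and 6084 CPM in mature neutrophil-like cells. S100a11 was at 1105, 1323, 2710.4 and 3801 CPM in the same order. In OTM, S100a6 went from 686 CPM in progenitor and cycling immature cells to 3807 and 4669 CPM, and S100a11 from 1574 to 3273 and 3956 CPM. Both genes were highest in mature neutrophil-like cells of either library, where S100a8 and S100a9 were lower than in the Ly6g/Ltf-led group. The order of the groups rests on their markers and not on a time course, and in OTM the markers of the Ly6g/Ltf-led group were nearest to the mature list.

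**Figure D3:**
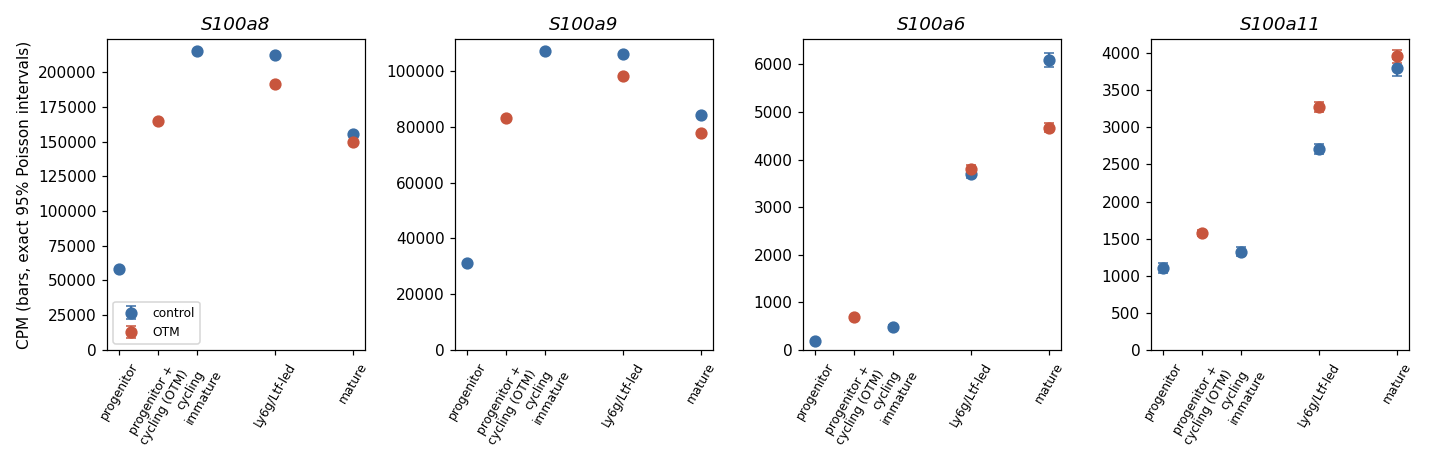
CPM of S100a8, S100a9, S100a6 and S100a11 in neutrophil-like groups of the control (blue) and OTM (red) libraries, from progenitor-like over Ly6g/Ltf-led to mature cells, with exact 95% Poisson intervals as bars. S100a6 and S100a11 are lowest in progenitor-like cells and highest in mature cells, and S100a8 and S100a9 peak in between. The interferon-response group of control is not shown.

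Among the monocyte/macrophage-like groups the monocyte genes had different peaks. Crip1 was highest in cycling monocyte-like cells, at 5519.8 CPM in control and 3947.5 CPM in OTM, and S100a10 was highest in the same groups, at 1971 and 1796 CPM. S100a4 was highest in control in the C1q macrophage-like group at 1722 CPM, ahead of the Fn1/Vcan-led group at 1487 CPM. In the 60 C1q macrophage-like cells S100a4 was very uneven: only 22 cells had a UMI, the median cell had 0, and the 95th percentile was 4749.7 CPM. In the Fn1/Vcan-led group 97.2% of 645 cells had one. In OTM the Saa3-led, cycling and Hbb-bs/Ly86-led groups had 808, 764 and 744 CPM of S100a4, and the intervals of neighbours in that order overlapped. The MHC class II-high groups were low in S100a10, at 516 CPM in control, with an interval that overlapped that of the nonclassical group, and at 465 CPM in OTM.

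Genes were ranked by how closely their levels followed those of a member over the 18 cell groups, among 4100 genes with at least 500 UMIs (Pearson correlation of log2(CPM + 10), a description over groups that share 2 libraries). S100a8 was closest to S100a9 (r = 0.994), followed by Wfdc21, Trem3, Pglyrp1 and Adpgk (0.971 to 0.964). S100a4 was closest to Ahnak (0.970), which encodes a large scaffold protein, and then to Ifi30, Psap, Ucp2 and Scpep1 (0.964 to 0.944). Crip1 and S100a10 followed each other at 0.964, and S100a4 followed Crip1 at 0.933 and S100a10 at 0.920. S100a11 was nearer to S100a8 (0.759) than to S100a4 (-0.39), and S100a6 was near neither (0.119 and 0.442). By this measure the 7 genes fell into the pair, the trio of S100a4, S100a10 and Crip1, and 2 genes with courses of their own.

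Between OTM and control, the pair hardly moved in neutrophil-like cells, whereas S100a4 and Crip1 were lower in OTM in both classes and S100a11 was higher in both. In neutrophil-like cells the OTM level of S100a8 and S100a9 summed was 0.971 times the control level (0.969 to 0.973). Of 3775 genes with at least 200 UMIs in this class, 5.96% were over 1.5-fold higher in OTM and 10.3% were over 1.5-fold lower, and the median gene had a log2 ratio of -0.08. Of the 7 members, 0 were higher and 2 were lower by this threshold, namely S100a4 (0.641, 0.566 to 0.727) and Crip1 (0.451, 0.420 to 0.484). With TMM in place of totals, 440 genes were higher and 201 lower, against 225 and 387, and the log2 ratio of the pair turned from -0.04 to 0.13 while S100a4 was no longer past the threshold (log2 ratio -0.47). The log2 ratios of S100a4 and Crip1, -0.64 and -1.15, kept their sign in every alternative run but were -0.03 and -0.22 with the minimum of genes per 1000 UMIs and -2.00 and -1.99 after joint clustering. In neutrophil-like cells with at least 1% neutrophil transcripts, S100a4 was at 33.3 and 21.4 CPM and Crip1 at 120.4 and 75.3 CPM in control and OTM. Monocyte/macrophage-like cells under 1% had 1317 and 805 CPM of S100a4 and 3770 and 2276 CPM of Crip1. How much of this S100a4 and Crip1 in neutrophil-like cells was free transcript of monocyte/macrophage-like cells was not tested. The lower levels in both classes are therefore not read as separate results.

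The minimum of genes per cell mattered for the pair. As worded in the study's methods, with 200 genes per 1000 UMIs, the filter takes out 26.1% of control and 59.1% of OTM neutrophil-like cells, and the pair made up 27.7% and 27.3% of the UMIs of the cells taken out, against 25.0% and 19.0% of the cells left in. In control the summed cells taken out and left in thus differed little, but single groups went both ways. In control mature neutrophil-like cells those taken out had less of the pair (13.5% against 26.6%). In the other control neutrophil-like groups they had more, as in Ly6g/Ltf-led (34.0% against 29.8%) and interferon-response cells (31.3% against 20.4%). Over all kept cells, the pair made up 13.2% of UMIs in control and 14.3% in OTM with the minimum per cell, but 9.08% and 5.54% with the minimum per 1000 UMIs. Over all kept cells, the direction of OTM against control thus turned with this choice. In neutrophil-like cells clustered after the stricter filter, the direction stayed and the log2 ratio of the pair was -0.47, against -0.04.

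Compared by group, the pair was at 0.947 (0.942 to 0.951) of the control level in mature and at 0.911 (0.908 to 0.914) in Ly6g/Ltf-led neutrophil-like cells, and at 1.09 (1.08 to 1.09) in the summed progenitor-like and cycling immature cells. S100a6 was at 0.767 (0.744 to 0.792) in mature cells and at 1.86 (1.72 to 2.02) in progenitor-like and cycling immature cells, so its ratios lay on opposite sides of 1. The mix of progenitor-like and cycling cells within that group can differ between libraries, and the Ly6g/Ltf-led group was nearest to immature neutrophils in control and to mature ones in OTM, so stage and library cannot be told apart in its ratios. S100a11 was at 1.04, 1.21 and 1.27 of control in mature, Ly6g/Ltf-led and progenitor-like plus cycling cells. The mature groups also held cells under 1% neutrophil transcripts. In control, 18 such cells held 211954 of 1095792 UMIs, with 0.903% from the pair, 1439 CPM of S100a6 and 811 CPM of S100a11. In OTM, 21 such cells held 176646 of 2095833 UMIs, with 1.86%, 1579 CPM and 1098 CPM. The mature ratios include these cells, which weigh more in control, and ratios without them were not worked out. In the median mature cell the pair took 30.9% of UMIs in control and 25.0% in OTM.

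S100a10 and Crip1 were lower in OTM mature neutrophil-like cells, at 148 against 346 CPM and 250 against 816 CPM. In control, however, this group held 18 cells with under 1% neutrophil transcripts, at a median of 12089 UMIs, against 21 OTM cells at a median of 4244 UMIs. Of the 894 Crip1 UMIs in control mature neutrophil-like cells, 741 lay in those 18 cells, at 3496 CPM. Split at 1%, the ratio of S100a10 over all neutrophil-like cells was 1.07 (0.894 to 1.29) in place of 0.720, and that of Crip1 was 0.625 (0.556 to 0.703) in place of 0.451. Genes of mast cells and basophils moved the same way: 5 of 5 markers were found in control neutrophil-like cells, summed to 122 CPM with Prss34 the highest at 60.8 CPM, against 3 of 5 at 2.89 CPM in OTM, with Ms4a2 and Prss34 at 0. Their part in these results was not tested.

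In monocyte/macrophage-like cells, S100a4 was at 1153 CPM in control and 682 CPM in OTM, a ratio of 0.592 (0.573 to 0.611). Crip1 was at 3306 and 1915 CPM, a ratio of 0.579 (0.568 to 0.590). S100a11 went the other way, with 976 and 1442 CPM, a ratio of 1.48 (1.44 to 1.52). S100a6 (0.864) and S100a10 (0.918) were slightly lower in OTM, the latter turning to a log2 ratio of 0.06 with TMM. The 5 genes summed were at 9402 and 7518.5 CPM, a ratio of 0.800 (0.791 to 0.808). Of 5172 genes tested in this class, 5.03% were over 1.5-fold higher and 11% were over 1.5-fold lower, and of the 7 members 0 were higher and 2 lower. With TMM, 452 genes were higher and 301 lower, against 260 and 571, S100a11 and S100a8 passed the threshold (log2 ratios 0.74 and 0.70) and S100a4 just missed it (-0.58).

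Over all alternatives run, the log2 ratio in this class lay between -0.79 and -0.58 for S100a4, between -0.88 and -0.61 for Crip1 and between 0.43 and 0.74 for S100a11. Over the whole class, the ratios moved little when barcodes with many neutrophil transcripts were left out, whereas in single groups they moved more. In cells of the class with under 1% of them, S100a4 was at 1317 and 805 CPM (0.611), Crip1 at 3770 and 2276 CPM (0.604) and S100a11 at 812 and 1198 CPM (1.48). In cycling monocyte-like cells, a group found in both libraries, Crip1 was at 0.715, S100a4 at 0.658 and S100a11 at 1.28 of control, and at 0.716, 0.664 and 1.23 in cells under 1%. In the groups named MHC class II-high, Crip1 was at 0.421, S100a4 at 0.515 and S100a11 at 2.42 over all cells and at 0.613, 0.756 and 1.54 in cells under 1%. These groups were not alike, since the OTM group also held the cells named nonclassical at a resolution of 1.0. Between the MHC class II-high groups at that resolution, of 285 control and 115 OTM cells, Crip1 was at 0.669 (0.633 to 0.708), S100a4 at 0.601 (0.539 to 0.670) and S100a11 at 1.32 (1.20 to 1.45), the latter at 1.06 (0.932 to 1.21) in cells under 1%. The nonclassical groups at that resolution were not alike either, as the control group was led by Fabp4, Eno3 and Cd36 with 5 nonclassical or other monocyte markers among its 10 leading genes, and the OTM group by Acp5, Gngt2 and Fcgr4 with 1. Between them, over 169 and 165 cells, Crip1 was at 0.722 (0.667 to 0.782), S100a4 at 1.04 (0.911 to 1.18), S100a11 at 1.31 (1.23 to 1.40) and S100a10, unlike over the whole class, at 2.82 (2.33 to 3.44). In nonclassical cells under 1%, which numbered 78 and 57, these ratios were 0.717, 1.18 (0.993 to 1.42), 2.12 (1.77 to 2.54) and 3.90 (2.93 to 5.28). The lower level of Crip1 was thus found in each of these groups, while the interval of S100a4 reached 1 in nonclassical and that of S100a11 in MHC class II-high cells under 1%. At the main resolution, the Fn1/Vcan-led and C1q groups had no counterpart of that name in OTM, and the Saa3-led and Hbb-bs/Ly86-led groups none in control. The groups at a resolution of 1.0 were compared after the data had been seen. With each cell thinned to 1500 UMIs, 71.7% of control and 57.2% of OTM cells had an S100a4 UMI (88.2% and 89.8% unthinned), and 86.6% and 73.8% had a Crip1 UMI (94.5% and 93.2% unthinned). Red cell genes moved with the OTM class: 5 of 5 markers summed to 330.4 CPM in control and 6733 CPM in OTM, with Hbb-bs the highest at 165 and 2970.0 CPM. Most of this lay in the OTM group of 279 cells led by Hbb-bs and, further down, Ly86, where the 5 markers summed to 26538 CPM, against 87.4 CPM in Saa3-led, 104 CPM in MHC class II-high and 1732 CPM in cycling OTM cells. Without that group, S100a4 was at 0.575 (0.555 to 0.596) of control, Crip1 at 0.552 (0.540 to 0.564), S100a11 at 1.59 (1.54 to 1.64) and S100a8 at 1.66 (1.65 to 1.67), the last 2 then being past 1.5-fold. With hemoglobin, ribosomal protein and mitochondrial genes left out of the totals, the log2 ratio of the 5 genes was -0.36, against -0.32 with them.

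**Figure D4:**
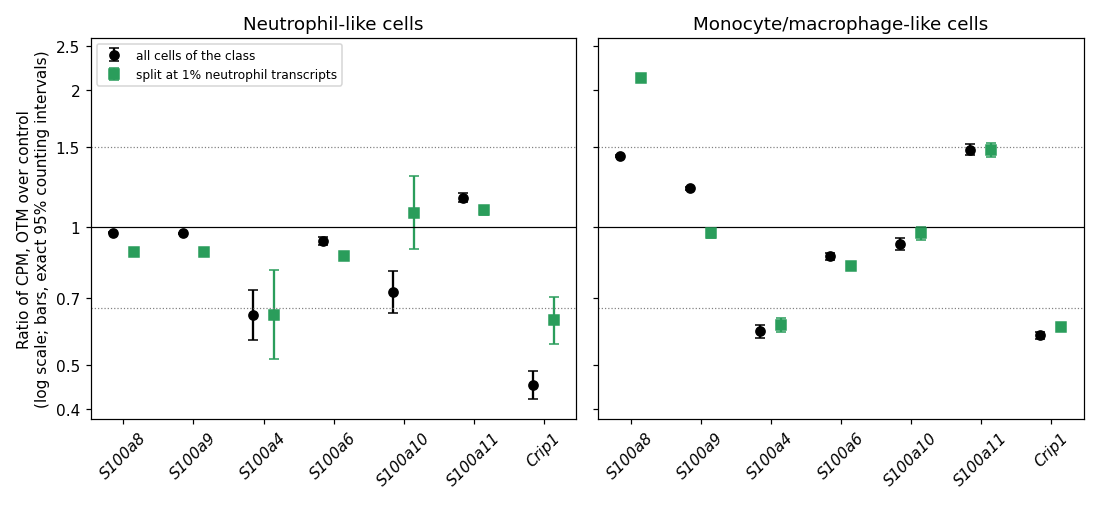
Ratio of CPM in OTM over control for each gene in neutrophil-like (left) and monocyte/macrophage-like cells (right), on a log axis with exact 95% counting intervals as bars. Black circles are all cells of the class, and green squares are neutrophil-like cells with at least 1% and monocyte/macrophage-like cells with under 1% neutrophil transcripts; dotted lines mark 1.5-fold. S100a4 and Crip1 lie below 1 on both sides, and S100a8 in monocyte/macrophage-like cells is at 1.43 over all cells and 2.12 with the split, and S100a9 at 1.22 and 0.970.

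S100a8 and S100a9 parted from each other in monocyte/macrophage-like cells of the OTM library. Over all cells of the class, S100a8 was at 22668 CPM in control and 32455 CPM in OTM (1.43, 1.42 to 1.44) and S100a9 at 11962 and 14557 CPM (1.22, 1.21 to 1.23). With the minimum of genes per 1000 UMIs the direction of both turned, to log2 ratios of -0.69 and -1.27. In cells with under 1% neutrophil transcripts, S100a8 was at 3416 CPM in control and 7244 CPM in OTM (2.12, 2.09 to 2.15), whereas S100a9 was at 2425 and 2352 CPM (0.970, 0.949 to 0.992). In these cells S100a8 was at 2206 and 2761 CPM in the median cell and at 9767 and 27258 CPM at the 95th percentile, so that the libraries differed more at the upper end of the cells than at the median. Single groups differed from the class. At a resolution of 1.0, S100a8 in cells under 1% was at 0.977 (0.918 to 1.04) of control in the MHC class II-high groups. In the nonclassical groups, which were not alike, it was at 1.10 (1.04 to 1.16). S100a9 was at 0.891 and 0.608 in the same comparisons. Over all cells of these groups, S100a8 was at 1.36 and 0.900 and S100a9 at 1.29 and 0.846.

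The number of S100a8 UMIs per S100a9 UMI shows the parting of the 2 genes without a scaling factor. It was 1.95 in neutrophil-like cells of both libraries (1.94 to 1.96 in control, 1.95 to 1.96 in OTM), and also in those with at least 1% neutrophil transcripts. In monocyte/macrophage-like cells under 1% it was 1.41 (1.38 to 1.44) in control and 3.08 (3.02 to 3.14) in OTM. The ratio also differed between libraries in the 115 control and 72 OTM neutrophil-like cells under 1%, at 1.47 (1.42 to 1.52) and 2.01 (1.93 to 2.11). These sets were unlike in stage. In control, 41 of the 115 cells were granulocyte progenitor-like, with 6003 of 8811 S100a8 UMIs and a ratio of 1.51. In OTM, 19 of the 72 were of the progenitor and cycling group, with 2706 of 5762 S100a8 UMIs and a ratio of 1.77. In the Ly6g/Ltf-led groups the ratio was 1.37 (1.17 to 1.62) in 36 control and 2.62 (2.29 to 3.00) in 32 OTM cells under 1%. The class of these Ly6g/Ltf-led cells is unsure, since they had 2009 and 1007 CPM of S100a4, against 33.3 and 21.4 CPM in neutrophil-like cells with at least 1%. The pair took 0.468% and 0.572% of their UMIs. The interval over all 72 cells included 1.95. By group, the ratio in cells under 1% was 4.12 (4.002 to 4.253) in Saa3-led, 3.30 (3.18 to 3.42) in cycling, 2.25 (2.17 to 2.34) in Hbb-bs/Ly86-led and 1.84 (1.75 to 1.93) in MHC class II-high OTM cells. In control it lay between 1.21 in MHC class II-high and 1.79 in cycling monocyte-like cells, and it was 1.33 (1.20 to 1.46) in the unnamed group. The excess of S100a8 over S100a9 was thus greatest in the Saa3-led and cycling monocyte-like groups of OTM. Their median cells under 1% had 4538 and 5051 CPM of S100a8, against 2204 CPM in the Hbb-bs/Ly86-led and 2296 CPM in the MHC class II-high group of OTM and 2082 CPM in the unnamed group of control. In the Saa3-led group 155 of 352 cells lay between 0.5% and 2% neutrophil transcripts, so the threshold cuts through this group.

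**Figure D5:**
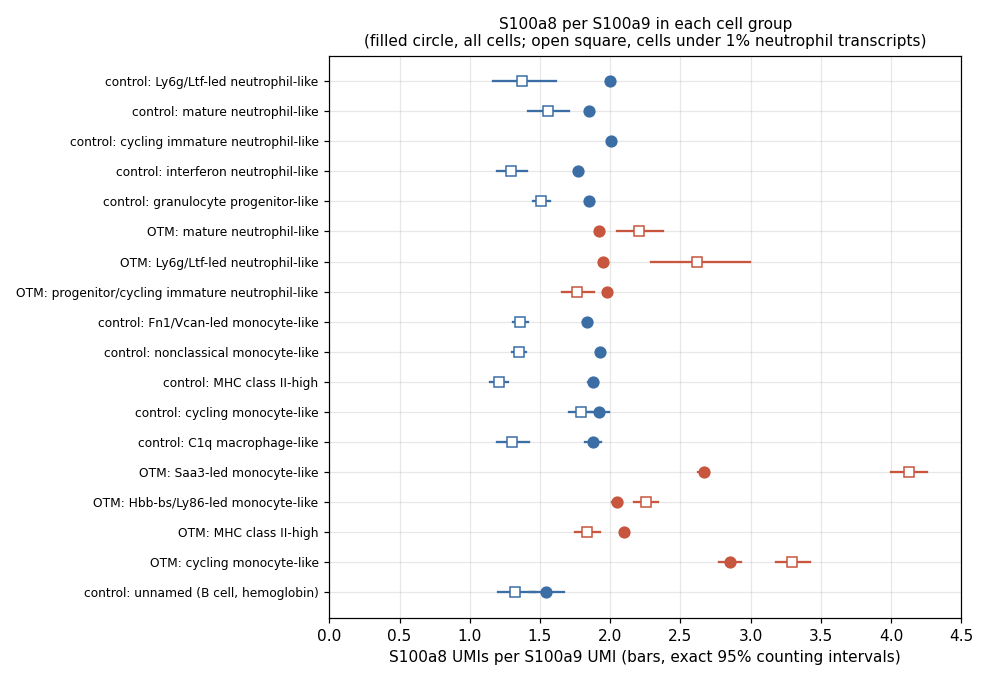
S100a8 UMIs per S100a9 UMI in the 18 cell groups (blue, control; red, OTM) with exact 95% counting intervals as bars. Filled circles are all cells of a group, and open squares are cells with under 1% neutrophil transcripts, drawn where the pair had at least 100 UMIs. The open squares of the OTM Saa3-led and cycling monocyte-like groups, at 4.12 and 3.30, lie apart from the control groups, all of whose points lie at or below 2.01.

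In those same monocyte/macrophage-like cells under 1%, other neutrophil genes moved both ways. Among 6 mature neutrophil markers, which summed to 1207 CPM in control and 2045 CPM in OTM, the counting interval of OTM over control lay above 1 for 2, below 1 for 2 and spanned 1 for 2. Il1r2, a decoy receptor for interleukin 1, was at 155 and 788 CPM and the collagenase Mmp8 at 134 and 473 CPM, whereas Retnlg was at 806 and 697 CPM. Among 6 immature neutrophil markers, which summed to 1729 and 2107 CPM, the counts were again 2, 2 and 2. The granule protein genes Lcn2 and Ngp were at 147 and 583 CPM and at 689 and 853 CPM, and Camp went the other way, at 762 and 550.1 CPM. Wfdc21, which is on neither list, was at 71.6 and 701 CPM. Apart from Il1r2, the genes named here were among those whose sum set the 1% limit. The part of these cells' other neutrophil transcripts in the S100a8 result was not tested.

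Of 14 other S100 and Crip genes listed for this report, 13 were in the table and 2 were measurable in these cells. S100a13 was at 205 CPM in control and 158 CPM in OTM neutrophil-like cells (0.770, 0.711 to 0.834) and at 266 and 201 CPM in monocyte/macrophage-like cells (0.755, 0.708 to 0.805). S100a1 lay between 62.5 and 72.3 CPM in both classes and libraries. S100g, S100z and Crip3 had 0 UMIs in both classes, and the other 8 genes had at most 18 UMIs in any class of a library. The 18 UMIs of S100a14 in control monocyte/macrophage-like cells all lay in 1 cell. The 6 S100 members thus carried nearly all of the family's transcripts.

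Of 20 genes listed as partners, receptors or regulators of the family, 19 were in the table. Anxa1, the annexin bound by S100a11, was like it higher in OTM, at 3112 and 5030.1 CPM in neutrophil-like cells (1.62, 1.59 to 1.64) and at 847 and 1451 CPM in monocyte/macrophage-like cells (1.71, 1.66 to 1.76). Anxa2, the partner of S100a10, differed less, at 1.33 and 1.06. Myh9, the myosin bound by S100a4, was at 0.706 and 0.682 of control, Cacybp at 0.526 and 0.607, and Ahnak at 0.624 and 0.681, with log2 ratios below the median gene in both classes. Lgals1, which encodes a galectin, was at 0.328 and 0.667. Its ratio in neutrophil-like cells depended on the split at 1%. With the split, Lgals1 was at 59.7 CPM in control and 46.9 CPM in OTM, against 279 and 91.5 CPM over all neutrophil-like cells.

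Among the receptors, Cd14, the coreceptor of Tlr4, was at 2637 CPM in control and 5618 CPM in OTM neutrophil-like cells (2.13, 2.09 to 2.17) and at 4002 and 7387 CPM in monocyte/macrophage-like cells (1.85, 1.82 to 1.87). Tlr4 itself was sparse, between 6.17 and 11.4 CPM, and Ager had at most 4 UMIs in any class of a library, so differences in Ager were not detectable at this depth. Bsg, another receptor of S100a9, was at 0.937 and 0.962 of control. Cd36, a fatty acid transporter that binds the pair with its lipid load, was at 24.6 and 12.1 CPM in monocyte/macrophage-like cells (0.492, 0.385 to 0.626). Cebpe, a factor of granule formation in neutrophils, was at 169 and 171 CPM in neutrophil-like cells. Cebpb was at 4116 and 3141 CPM in monocyte/macrophage-like cells (0.763, 0.751 to 0.775).

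Each OTM over control value compares 1 library with 1 library, so differences between mice, sorts and libraries cannot be told apart from those of force. The OTM library had a higher median depth than the control library, and the groups were rebuilt here and need not be those of the study.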

How the data were processed

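Cells sorted from alveolar bone were profiled with the 10x 3' version 2 chemistry, 1 library per condition. Per the submitters' processing notes and the study's methods, the authors made the deposited UMI counts with Cell Ranger 3.0.0 on mm10 and analysed them in Seurat 3.0.0. The deposited values are raw counts per gene and cell without normalization, of fewer cells than the study states. All columns were matched to a library by file, and 0 were left over.

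Cells with at least 200 genes and at most 5% mitochondrial UMIs were kept, whereas the study's methods word the first limit per 1000 UMIs, which was run as an alternative. Each library was clustered alone in Seurat 5.3.0 with the study's settings (12 control and 8 OTM principal components, resolution 0.6), leaving all S100 and Crip genes out of the variable features. Groups were named from marker lists, with naming thresholds set with the data at hand. Scrublet in scanpy 1.11.5 marked 3 doublets, and none were removed. Counts were summed per group and given per 1000000 UMIs (CPM) with exact Poisson intervals, and ratios with exact conditional binomial intervals at 95% confidence (scipy 1.17.1), tested on simulated counts. These were Poisson draws, the model that the intervals assume, so the run checked the code only. It left out the uneven spread of UMIs over cells. Genes with at least 200 UMIs formed the background. TMM factors came from edgeR 4.0.16.

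The genes named are the 7 members, other S100 and Crip genes, known partners, receptors and regulators, the 5 genes with the highest correlation to S100a8 and to S100a4, and the markers. Some values singled out, such as the split at 1%, were chosen after values were seen. The minimum of genes per cell was chosen in view of the share of the pair in cells that the other reading takes out. The members and lists were chosen with earlier results of these data known.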

Additional observations from a re-analysis of the deposited data

Results flagged for a closer look

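S100a8 and S100a9 lay on opposite sides of 1 in the 2 cell classes when all cells were summed and scaled by totals, with intervals that did not reach 1. The OTM over control ratio of S100a8 was 0.971 in neutrophil-like and 1.43 in monocyte/macrophage-like cells, and with cells split at 1% neutrophil transcripts it was 0.883 and 2.12. For S100a9 it was 0.969 and 1.22 over all cells, but with the split it was 0.883 and 0.970, both below 1. Of the 1009771 UMIs that the split left out of control neutrophil-like cells, 581949 were of granulocyte progenitor-like cells. In OTM, 206800 of 575173 were of the progenitor and cycling group. The split thus also changed the mix of stages, and not alike in the libraries. With 1 library per condition, the difference between the classes was not tested, and the ratios of both genes in monocyte/macrophage-like cells turned below 1 with the minimum of genes per 1000 UMIs, as the study's methods word it. With TMM, both genes turned above 1 in neutrophil-like cells (log2 ratio 0.13 each), the same side as in monocyte/macrophage-like cells.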

How the results depend on the processing

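No paired analysis was possible because each condition has 1 library. For the pair in neutrophil-like cells the log2 ratio of OTM over control was -0.04, and it was -0.47 with the minimum of 200 genes set per 1000 UMIs, -0.050 and -0.040 at resolutions 0.3 and 1.0, -0.038 with S100 and Crip genes allowed among the variable features (0 entered in control and 2 in OTM), 0.00015 after joint clustering with CCA, -0.058 with totals that leave out the pair, -0.075 with totals that leave out red cell, ribosomal and mitochondrial genes, 0.13 with TMM, -0.16 as a mean over cells, -0.16 with thinned cells and -0.18 with the split at 1%. For the 5 genes in monocyte/macrophage-like cells it was -0.32, and -0.34 with the stricter minimum, -0.30 and -0.36 with the 2 reduced totals, -0.14 with TMM, -0.36 as a mean over cells, -0.36 with thinned cells and -0.36 with the split. Genes past 1.5-fold numbered 612 in neutrophil-like and 831 in monocyte/macrophage-like cells, and 1663 and 1854 at 50 UMIs, 4310 and 4128 with no minimum beyond 1 UMI in each library, and 136 and 226 past 2-fold. For single members, 157 of 168 OTM over control values under 12 alternatives kept their direction, and 7 of 14 results never turned. S100a9 in monocyte/macrophage-like cells moved from 0.28 to -1.27 with the stricter minimum. Moves of similar size were seen in neutrophil-like cells after joint clustering with CCA, where S100a4, S100a10 and Crip1 had log2 ratios of -2.00, -1.47 and -1.99, against -0.03, 0.43 and -0.22 with the stricter minimum; the cause was not tested. Of 168 neutrophil-like over monocyte/macrophage-like values, 160 kept their direction, and the other 8 were of S100a6.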
